A study of Mus musculus with 42 samples.

Results

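Thap2, Ppp1r12a, Tmpo, Slc25a4, Tm9sf3 and Snx7 are the 6 mouse genes whose 3′UTR isoforms shifted the same way in all 3 pairs of arsenite-stressed and untreated NIH3T3 libraries. They were chosen by that shift in total RNA: in each pair the share of reads at the distal polyadenylation site (PAS) changed by more than 5 percentage points, in the same direction, with a Fisher's exact p below 0.05. Of 1674 genes measured in the 3 pairs, 5 met the rule with a fall of the distal share (0.299%) and 1, Snx7, with a rise (0.0597%). These values chose the members, so they are described and not tested. The 6 genes had 66 PAS clusters within the gene and 4000 nt downstream, of 83916 clusters in all, and 54 of the 66 lay in a 3′UTR.

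The series holds 42 libraries of mouse cells, 38 by 3′READS, which counts reads at the 3′ ends of poly(A)+ RNA, and 4 by RNA-seq. NIH3T3, a fibroblast line, was left untreated (NT), stressed for 1 h with 250 µM sodium arsenite (AS), or stressed and returned to normal medium for 4, 8, 12 or 24 h (RC4, RC8, RC12, RC24). Total RNA had 3 NT and 3 AS libraries (replicates 1, 2 and 4) and 1 library at each recovery time (replicate 4). RNA labelled with 50 µM 4-thiouridine for 1 h before harvest was split into a captured, newly made fraction (4sU) and a flow-through fraction of pre-existing RNA (Ft), with 1 library each for NT0h, AS, NT4h and RC4. RNA bound by TIA1, a U-rich RNA binding protein of stress granules, was immunoprecipitated (RIP) from cytoplasmic lysates of NT and AS cells, with 2 RIP and 2 input libraries in each condition. C2C12, a myoblast line that fuses into myotubes when serum is lowered, gave 1 cytoplasmic library of myoblasts (MB) and 1 of myotubes (MT) for NT0h, NT4h, AS and RC4, and 2 libraries of total RNA for each of MB and MT. RNA-seq had 1 total-RNA NIH3T3 library for NT0h, AS, NT4h and RC4. The labels do not say which replicates came from separate cultures, so the p-values measure the spread between these libraries.

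Libraries held 1048335 to 6974664 PAS reads, and the shallowest were replicate 4 libraries of total RNA. Hspa1b, an inducible heat shock chaperone, lay at 4.3 to 157 RPM (reads scaled to a common library total) in the 3 NT libraries and 249 to 654 in the 3 AS libraries of total RNA. Myog, a transcription factor of muscle differentiation, was unlisted in MB total RNA and lay at 1090 to 1210 RPM in MT total RNA. Des, Myf5 and Myod1, genes of the muscle lineage, were unlisted in total NIH3T3 RNA and listed in C2C12 total RNA, MB and MT alike. Col1a1, a collagen of fibroblasts, was at 179 to 664 RPM in the 3 NT libraries and does not set the lines apart, with 584 to 629 in MT total RNA.

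A gene with more than one PAS in its last exon makes mRNAs that share a protein but differ in 3′UTR length. Cleavage takes place a short way downstream of a hexamer, most often AAUAAA or AUUAAA, and stretches rich in U or GU help to place it. The part of the 3′UTR between a proximal and a distal PAS (pPAS and dPAS), the alternative 3′UTR or aUTR, carries binding sites that the longer isoform has and the shorter one lacks. TIA1 binds U-rich RNA, represses translation of its targets and moves with untranslated mRNA into stress granules.

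For each gene the pPAS and dPAS were the pair of most abundant 3′UTR PASs in total NIH3T3 RNA. The last 30 bases before cleavage at these sites are shown, the stretch that was searched for the hexamers. They are the sense strand of mm9, 5′ to 3′, ending at the PAS position, with the hexamer AATAAA, or else ATTAAA, in capitals.
Thap2 pPAS (chr10:114809136-114809165, minus): atagAATAAAacctctggggtacggggcaa
Thap2 dPAS (chr10:114805454-114805483, minus): gttactATTAAAaaattgtttcccaaggaa
Ppp1r12a pPAS (chr10:107714603-107714632, plus): tccagcaAATAAAgaaagtgttcaaggcca
Ppp1r12a dPAS (chr10:107716673-107716702, plus): tattttacataaagctgtctgtatgcagaa
Tmpo pPAS (chr10:90611856-90611885, minus): acATTAAAtacttggaattcttacggaaaa
Tmpo dPAS (chr10:90610316-90610345, minus): ataattcaatAATAAAgtaattaacctcta
Slc25a4 pPAS (chr8:47292693-47292722, minus): ccagaccgtaaggaatacctcagaaaaaaa
Slc25a4 dPAS (chr8:47292527-47292556, minus): gtgactcattAATAAAgactactcaataca
Tm9sf3 pPAS (chr19:41288962-41288991, minus): aaATTAAAagctattcaattctgcatggaa
Tm9sf3 dPAS (chr19:41288282-41288311, minus): agaatgttcaAATAAAatttcctgaccaaa
Snx7 pPAS (chr3:117484793-117484822, minus): cttggttttAATAAAatctttaataagaaa
Snx7 dPAS (chr3:117484571-117484600, minus): ataaagtggttgttttcaacaatgtaaaaa

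Tmpo, Slc25a4 and Tm9sf3 had AATAAA at the dPAS, while their pPAS had ATTAAA or, in Slc25a4, neither hexamer. Thap2, Ppp1r12a and Snx7 had AATAAA at the pPAS, and their dPAS had ATTAAA in Thap2 and neither in the other two. Over the 44387 PASs in 3′UTRs, searched in the same 30 bases on the sense strand, 33.8% held AATAAA, 12.8% held ATTAAA without AATAAA and 53.5% held neither. A hexamer further upstream, or one of the rarer variants, was not searched.

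Thap2 (ENSMUSG00000020137.4, chr10:114807022-114821491 on the minus strand) encodes a protein with a THAP zinc finger. Its pPAS gave a 3′UTR of 480 nt, and its dPAS, 1568 nt past the annotated end, one of 4162 nt, so that the aUTR of 3682 nt was longer than those of 96.3% of the 6419 genes with a pair. Ppp1r12a (ENSMUSG00000019907.8, chr10:107599249-107714631 on the plus strand) encodes MYPT1, the targeting subunit of myosin light chain phosphatase. Its pPAS was at the annotated end and its dPAS 2071 nt beyond, for 3′UTRs of 389 and 2459 nt. The pair held 63.5% of its 3′UTR reads, and PASs further downstream, at 2578 and 2798 nt, had 4560 and 1114 reads. Tmpo (ENSMUSG00000019961.9, chr10:90610316-90634759 on the minus strand) encodes thymopoietins (LAP2 proteins), LEM domain proteins of the inner nuclear membrane and lamina, and both its PASs, for 3′UTRs of 365 and 1905 nt, were annotated transcript ends in the last exon.

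Slc25a4 (ENSMUSG00000031633.4, chr8:47292151-47296638 on the minus strand) encodes the mitochondrial ADP/ATP carrier ANT1. Its PASs were the closest together, 166 nt apart, and the dPAS gave a 3′UTR of 290 nt. Tm9sf3 (ENSMUSG00000025016.9, chr19:41285332-41338494 on the minus strand) encodes a multipass membrane protein of the secretory pathway and had 17 clusters in its 3′UTR, of which the pair at 600 and 1280 nt held 74.1% of the reads. Snx7 (ENSMUSG00000028007.6, chr3:117484415-117571854 on the minus strand) encodes a sorting nexin, a phosphoinositide binding protein of endosomes, and its PASs at 424 and 646 nt held 98.5% of its 3′UTR reads. No annotated gene on the opposite strand overlapped any of the 6 aUTRs.

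**Figure D1:**
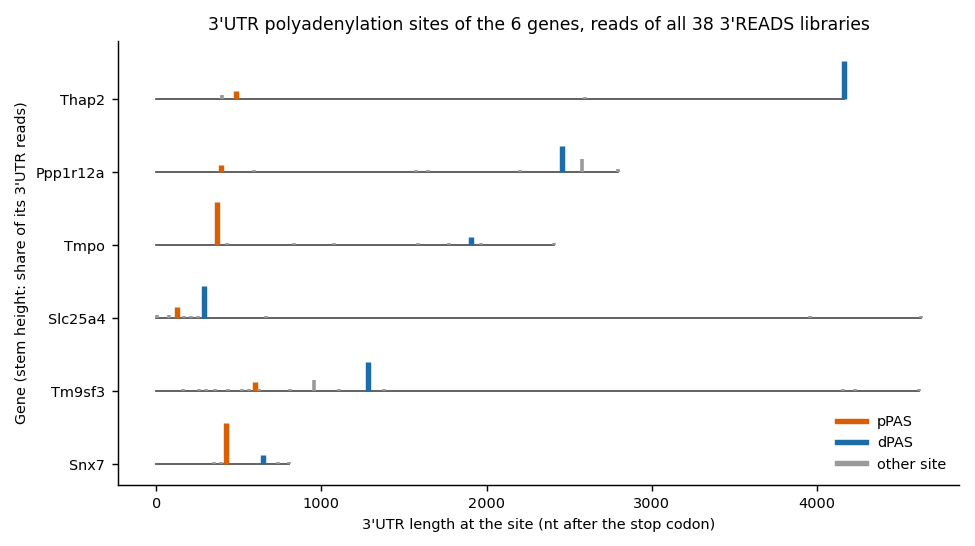
Each row is 1 gene, the x axis is the 3′UTR length at each PAS in nt after the stop codon, and the height of a stem is that PAS's share of the gene's 3′UTR reads over the 38 3′READS libraries. The pPAS is the main site of Tmpo and Snx7 and the dPAS that of the other genes, and the aUTR runs from 166 nt in Slc25a4 to 3682 nt in Thap2.

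The aUTRs of Ppp1r12a and Tmpo were the richest in UUUU, the tetramer taken here for U-rich sequence, counted with overlaps on the sense strand. Ppp1r12a had 74 UUUU in 2070 nt, or 35.8 per kb, more than 88.7% of the genes with a pair, and Tmpo had 43 in 1540 nt, or 27.9 per kb, more than 81.9%. Thap2 had 19.8 per kb, Tm9sf3 14.7, Snx7 13.5 and Slc25a4 12.1, where the median over all genes with a pair was 13.6 and 88% of aUTRs had at least 1. Snx7 had the highest U content of the 6, 40.5% against a median of 31.2%. The motif AUUUA of AU-rich elements was found 12 times in Ppp1r12a, 10 times in Tmpo, 9 in Thap2, 7 in Tm9sf3, 2 in Slc25a4 and 1 in Snx7. Of all aUTRs, 58.3% held it. A match of letters is a description and not a site of binding.

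In the total RNA that chose them, the 6 genes differed in how far and how evenly they shifted. The shift is given below as the dPAS share, the percentage of pPAS and dPAS reads that ended at the dPAS, and as RED, the log2 of dPAS over pPAS reads in AS minus the same in NT, so that RED below 0 means a shorter 3′UTR.

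Tmpo had the dPAS at 18.1%, 18.5% and 23.4% of reads in NT replicates 1, 2 and 4 and at 10.3%, 10.5% and 13.8% in AS. NT and AS did not overlap, and the 3 REDs of −0.94, −0.95 and −0.93 were nearly the same. The pPAS isoform was higher in AS than in the NT library of its number, at 863 against 788 RPM, 425 against 315 and 401 against 309, and the dPAS isoform was lower, at 99.3 against 174 RPM, 49.8 against 71.4 and 64.5 against 94.4.

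Slc25a4 had dPAS shares of 58.7%, 77.5% and 71.8% in NT and 44.1%, 65.5% and 62.6% in AS. The replicates lay so far apart that NT replicate 1 was below 2 of the AS libraries, while within each pair AS was lower, with REDs of −0.85, −0.86 and −0.61. Tm9sf3 behaved likewise: 49.9%, 78.3% and 68.1% in NT against 43.2%, 65.8% and 53.7% in AS, with REDs of −0.39, −0.91 and −0.88.

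Thap2 had dPAS shares of 78%, 69.8% and 87.2% in NT and 56.6%, 60% and 51.2% in AS, without overlap. Its REDs of −1.44, −0.62 and −2.70 spread widely, and the replicate 4 pair rested on few reads, with 6 of the pPAS in NT. Ppp1r12a fell from 84.8%, 86.7% and 77.8% to 71.6%, 76.1% and 40%, again without overlap, with REDs of −1.15, −1.04 and −2.39. In replicates 1 and 2 the dPAS isoform of Ppp1r12a stayed level, at 38.6 against 39.6 RPM and 40.6 against 38.6, while its pPAS isoform rose from 7.08 to 15.3 and from 5.89 to 12.8. In replicate 4 the pPAS isoform went from 9.38 to 15.3 RPM and the dPAS isoform from 32.8 to 10.2.

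Snx7 went the other way, from 19.7%, 10.1% and 28% in NT to 35.5%, 19.9% and 62.5% in AS. NT replicate 4 exceeded AS replicate 2, so the groups overlapped, but each pair rose, with REDs of 1.16, 1.15 and 2.10. The replicate 4 pair had 25 reads in NT and 24 in AS, and the 95% Wilson intervals of its shares, 14.3 to 47.6% and 42.7 to 78.8%, overlapped.

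The choice rested on the weakest pair. Tm9sf3 was the member nearest the threshold, with a largest Fisher's exact p over its 3 pairs of 0.047. Just outside were Vkorc1l1, at 0.058 with changes of −31.6, −11.6 and −20.4 points, and Map4k4, at 0.068 with changes of −19.8, −18.3 and −8.55 points. Fisher's test compares the reads of 2 libraries and takes no account of the spread between replicates. When each isoform needed over 20 reads a library in place of over 5, Tmpo, Slc25a4 and Tm9sf3 still met the rule, and Thap2, Ppp1r12a and Snx7 were no longer measured.

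**Figure D2:**
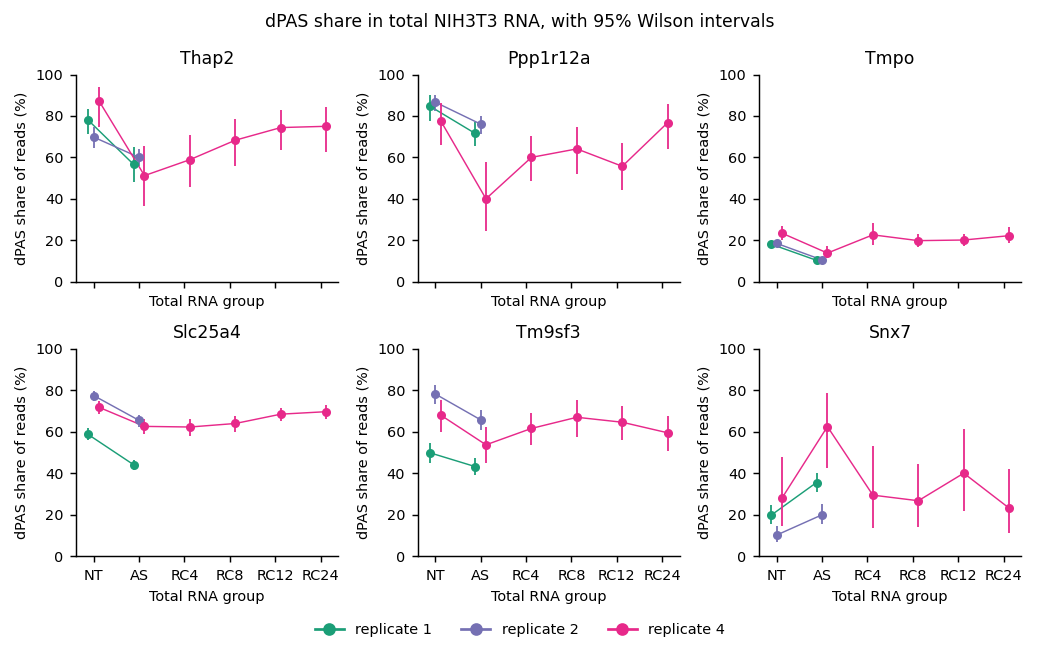
Each panel is 1 gene in total NIH3T3 RNA, with the dPAS share in percent on the y axis and the group on the x axis. Points are libraries, lines join libraries of 1 replicate number and bars are 95% Wilson intervals, which cover counting error of reads only. Every AS point lies on the chosen side of the NT point of its number. In the recovery libraries (replicate 4) Tmpo is near its NT share by RC4 and Ppp1r12a by RC24, while Tm9sf3 has no order in time.

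The recovery libraries asked how long the shift lasted. There was 1 library a time, compared with NT replicate 4, one of the libraries that chose the members, so no test was made and the interval of each share is the measure of error. At RC4, 3 of the 5 shortened genes, Thap2, Ppp1r12a and Slc25a4, had a RED of −0.5 or lower, as had 36.6% of all genes measured. At RC8 there were 3 (28.3% of all genes), at RC12 2 (25.5%) and at RC24 2 (18.6%). NT replicate 4 had the highest dPAS share of Thap2 among the NT libraries, and against the mean of the 3 NT libraries the counts were 2, 2, 1 and 1. The shares of all genes given above are against NT replicate 4 and do not belong to these counts. Against the mean Thap2 had REDs of −1.41, −0.82, −0.40 and −0.35 over the 4 times, and Ppp1r12a −1.75, −1.50, −2.003 and −0.61.

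Tmpo was back at its untreated share by RC4, with 22.6% (17.6 to 28.4%) against 23.4% (20.2 to 26.9%) in NT and 13.8% (11.2 to 17.0%) in AS. It then stayed at 19.8%, 20.1% and 22.2%. Its level did not follow this course: the gene had 120 RPM at RC4, against 410 in NT replicate 4 and 466 in AS replicate 4, and 376 at RC8. The RC4 value rests on 226 reads of the pair in a library of 1885486.

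Ppp1r12a had dPAS shares of 60%, 64.1% and 55.7% at RC4, RC8 and RC12 against 77.8% in NT, and 76.8% at RC24. The interval at RC12, 44.1 to 66.8%, barely met that of NT, 66.1 to 86.3%. Thap2 climbed from 51.2% in AS through 58.9%, 68.3% and 74.4% to 75% at RC24 (62.8 to 84.2%), below the 87.2% of NT replicate 4 but among the 69.8% and 78% of the other NT libraries.

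Slc25a4 had 62.3%, 64%, 68.5% and 69.7% over the 4 times against 62.6% in AS and 71.8% in NT. Tm9sf3 lay between 59.5% and 67% in recovery with no order in time, against 53.7% in AS and 68.1% in NT. Snx7 was at 29.4%, 26.7%, 40% and 23.1% with 17 to 30 reads a library, and no difference from the 28% of NT was detectable at this depth.

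The RIP input libraries repeat the arsenite contrast in cytoplasmic RNA of NIH3T3 cells and were not used to choose the genes. None of the 6 passed there. The fitted log2 change of dPAS over pPAS was −0.43 ± 0.50 (SE, n = 2 against 2, adjusted p = 1.0) for Tmpo, −0.35 ± 0.69 (adjusted p = 1.0) for Thap2 and −0.02 ± 0.86 (adjusted p = 1.0) for Ppp1r12a. For Slc25a4 it was 0.15 ± 0.80, for Tm9sf3 0.08 ± 0.63 and for Snx7 0.42 ± 0.61, each with an adjusted p of 1.0. These are edgeR quasi-likelihood tests of the isoform by treatment term with Benjamini-Hochberg adjustment over 2086 genes, which called no gene in either direction (0.0% of genes, with 9 at an unadjusted p below 0.05, and 0 by DESeq2). Fisher's exact test in both replicate pairs, with 1.97% of genes called as shorter and 0.24% as longer, called none of the 6. The fit had no replicate block, though same-numbered inputs deviated together (correlation 0.60 for log2 dPAS over pPAS). With the block edgeR again called no gene, with 132 at an unadjusted p below 0.05. Tmpo then had −0.43 (adjusted p = 0.88 by edgeR).

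The input replicates disagreed with each other. In replicate 1 the REDs of the 5 genes shortened in total RNA were all below 0, from −1.15 in Thap2 to −0.07 in Tm9sf3. Of all genes measured, 60.0% were below 0 in that pair. In replicate 2, where 51.9% of all genes were below 0, the value was −0.06 for Tmpo and above 0 for the other 4, from 0.24 in Tm9sf3 to 0.55 in Ppp1r12a. Snx7 rose in both, by 0.22 and 0.65. The untreated inputs were as far apart: Slc25a4 had a dPAS share of 82.8% in input NT replicate 1 and 52% in replicate 2, Ppp1r12a 84.2% and 52%, and Thap2 82.3% and 59%. Input gene levels did not pass for any of the 6 either, with fitted log2 changes between −0.29 for Ppp1r12a and 0.24 for Tmpo (adjusted p = 1.0 by edgeR for each, 0 genes called of 8194 or 0.0%, 150 at an unadjusted p below 0.05, 25 by DESeq2). With the replicate block edgeR called 86 genes and none of the 6, whose adjusted p was 0.85 or higher.

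In newly made RNA the AS library had RED at −0.5 or lower for Ppp1r12a (−1.22), Thap2 (−1.18) and Tmpo (−0.86), 3 of the 5, as had 41.4% of all genes. With the PASs most abundant in these fractions, which for Ppp1r12a are 119 nt apart, Ppp1r12a had −0.15 in 4sU AS, −0.09 in Ft AS and −0.07 in 4sU RC4. With them 2 of the 5 were past −0.5 in 4sU AS, and the 41.4% of all genes is for the pairs from total RNA only. Pre-existing RNA had all 5 there, from −1.31 in Ppp1r12a and −1.23 in Tmpo to −0.51 in Thap2, where 31.1% of all genes were. Snx7 did not keep its direction in newly made RNA: its dPAS share was 30% (23.9 to 36.9%) in 4sU NT0h and 17.6% (13.5 to 22.5%) in 4sU AS, a RED of −1.01, while in Ft it was 13.7% and 16.1%, a RED of 0.27.

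Tmpo shifted in both fractions and did not return at RC4. Its dPAS share was 43.9% in 4sU NT0h, 30.1% in AS, 39.1% in NT4h and 25.2% in RC4, and 49.5%, 29.4%, 44.6% and 24.5% in Ft. None of the intervals of the 4 stressed or recovering libraries, which together ran from 20.4 to 33.6%, met those of the 4 untreated ones, from 36.8 to 52.8%. In total RNA at RC4, by contrast, the share was that of NT, and all total-RNA shares of Tmpo, at 10.3 to 23.4%, were below those of both fractions, so the experiments differ in level. Of the 4 contrasts of these fractions, Thap2 had the largest shift in Ft at RC4, from 88.5% (81.8 to 92.9%) in NT4h to 51.5% (41.9 to 61.0%).

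Of the 5, 4 had RED at −0.5 or lower in 4sU at RC4 (46.2% of all genes) and 3 in Ft at RC4 (50.4%). The 2 untreated libraries measure the scatter. Between 4sU NT4h and NT0h the RED was −0.87 for Tm9sf3, −0.76 for Slc25a4, −0.62 for Snx7 and −0.57 for Ppp1r12a, against −0.29 for Tmpo and 0.18 for Thap2. Against NT4h in place of NT0h the 4sU AS values were 0.30 for Slc25a4, 0.80 for Tm9sf3 and −0.39 for Snx7, whereas Tmpo kept −0.58, Ppp1r12a −0.66 and Thap2 −1.36. In Ft the same change of control took Slc25a4 from −0.72 to 0.14 and Tm9sf3 from −0.57 to −0.13, and left Tmpo at −0.95, Ppp1r12a at −0.83 and Thap2 at −1.33.

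Isoform and age of the RNA were related differently from gene to gene. The log2 of dPAS over pPAS in Ft minus that in 4sU, where a negative value means relatively less of the long isoform in pre-existing RNA, was below 0 for Ppp1r12a in the 4 conditions (−0.82 in NT0h, −0.91 in AS, −0.74 in NT4h and −0.38 in RC4). It was above 0 for Slc25a4 in the 4 (0.97, 0.70, 0.87 and 1.54), where the median over all genes was −0.24 to −0.53. Thap2 was below 0 in the 4 conditions and Snx7 too, Tm9sf3 lay at 0.47, −0.03, 0.89 and 0.93, and Tmpo within 0.33 of 0. These are single libraries of fractions whose recovery can depend on the number of U bases, which was not corrected for.

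In C2C12 cytoplasm, MB AS had RED at −0.5 or lower for Thap2 (−1.25), Ppp1r12a (−0.87) and Tmpo (−0.65), 3 of the 5, as had 27.6% of all genes. MT AS had 2, Thap2 (−0.93) and Ppp1r12a (−0.52), as had 29.5%. Slc25a4 and Tm9sf3 had REDs of 0.24 and 0.78 in MT AS, and Snx7, with 0.44 in MB AS, had −0.98 in MT AS. Against MT NT4h in place of NT0h, MT AS gave −0.07 for Ppp1r12a, −0.30 for Slc25a4 and −1.03 for Tmpo. Thap2 differed least of the 6 between the untreated libraries, with a RED of NT4h against NT0h of 0.07 in MB and 0.06 in MT. In MB its dPAS share was 73.6% and 74.5% untreated, 53.9% (42.8 to 64.7%) in AS and 28.6% (16.3 to 45.1%) in RC4. In MT it was 88.9% and 89.3% untreated, 80.8% (73 to 86.7%) in AS and 67.1% (56.5 to 76.1%) in RC4. In MB and in MT the AS interval overlapped those of the untreated libraries, and the RC4 interval did not. The untreated MT libraries had 6 pPAS reads each, and the sign in MT AS depended on the pPAS, as given below.

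In MT the dPAS share of Ppp1r12a was low at RC4 and not in AS. It was 93.8%, 91.6% and 91.3% in NT0h, NT4h and AS, whose intervals overlap, and 71.6% (66.1 to 76.5%) in RC4. In MB it was 89.9% in NT0h, 94.6% in NT4h, 83% in AS and 72.6% (63.9 to 79.9%) in RC4. These values depend on the pair of PASs. In C2C12 the pair of most abundant Ppp1r12a PASs was another, at positions 107716702 and 107716821 of chromosome 10, only 119 nt apart, and with it the RED was 0.62 in MB AS, 1.60 in MB RC4 and 0.12 in MT RC4. With the Thap2 pPAS that was the more abundant in C2C12, at position 114809216, its RED in MT AS was 0.75.

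The MB NT4h library stood apart from MB NT0h for 5 of the 6 genes, in the direction opposite to the choice. This was not particular to them: of all genes measured, 26.8% had a RED of −0.5 or lower and 26.0% of 0.5 or higher between these untreated libraries. Slc25a4 had a dPAS share of 90.3% there against 67.9%, Tm9sf3 96.2% against 82.6%, Tmpo 24.9% against 13.5% and Ppp1r12a 94.6% against 89.9%, whereas Snx7 had 5.07% against 16.1%. As REDs these differences between untreated libraries were 2.14, 2.40, 1.09, 0.99 and −1.85, larger than the AS values. MB RC4 against this library had all 5 at −0.5 or lower (48.3% of all genes were), from −2.87 in Thap2 to −1.62 in Tmpo. Against MB NT0h, MB RC4 kept −2.80 for Thap2, −1.75 for Ppp1r12a and −0.54 for Tmpo, and gave −0.49 for Slc25a4, −0.17 for Tm9sf3 and 0.43 for Snx7. In MT RC4 against its NT4h, Thap2 (−2.03), Ppp1r12a (−2.12) and Tmpo (−0.63) were past −0.5 (3 of 5, 40.8% of all genes), and Tmpo was at 0.28 against MT NT0h.

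**Figure D3:**
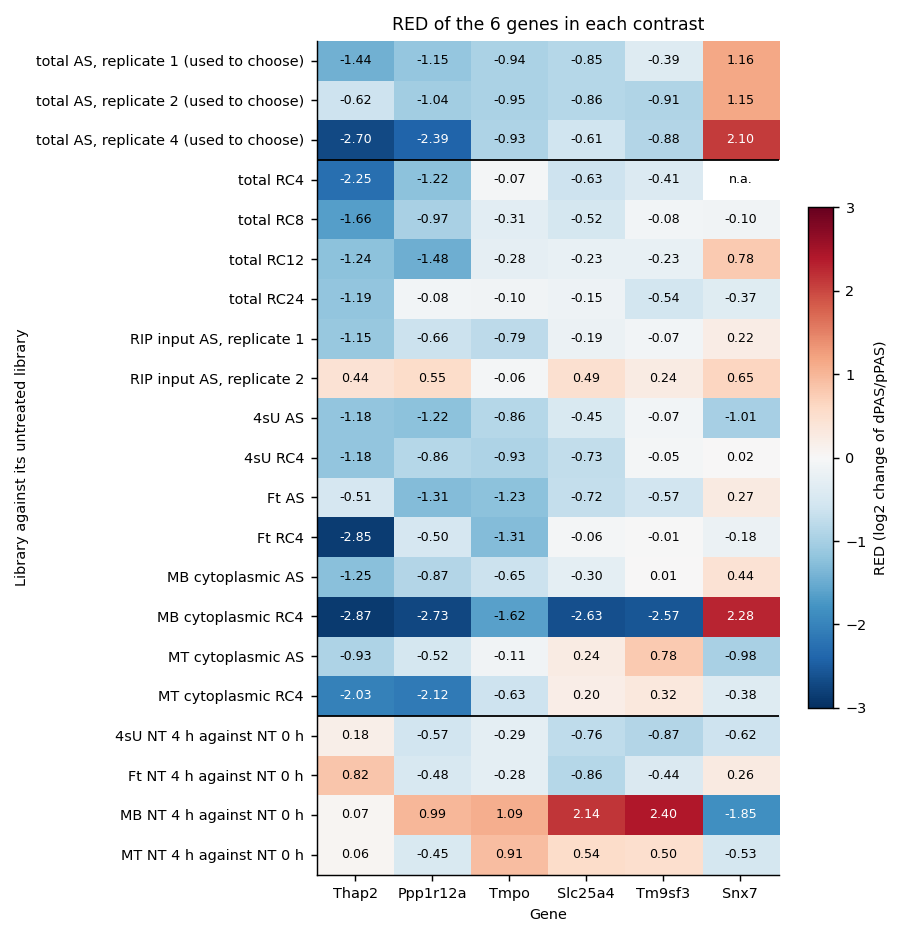
RED of each gene (columns) in each library against its untreated library (rows), with the value printed, from blue (shorter, below 0) to red (longer, above 0). The rows above the first line chose the genes, and the rows below the second line compare untreated libraries with each other, where MB NT4h reaches 2.40 in Tm9sf3 and −1.85 in Snx7. With these PASs, Thap2 and Ppp1r12a are below 0 in each row between the lines but RIP input replicate 2.

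TIA1 RIP asked whether the long and the short isoform of a gene are bound alike. It was measured as log2 of RIP over input RPM. The Thap2 dPAS isoform was enriched in AS, at 1.71 and 0.82 in replicates 1 and 2, and its pPAS isoform depleted, at −0.999 and −1.89. The difference between isoforms was 2.71 in both replicates, and the edgeR test with the replicate block gave 2.71 ± 0.46 (SE, n = 2 against 2) with an adjusted p of 0.10, which misses the threshold. In NT the pPAS of Thap2 was unlisted in RIP replicate 1, so it was not tested, and replicate 2 gave a difference of 2.18.

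Slc25a4 was the reverse, with both isoforms below input in NT and the long one lower. Its dPAS isoform lay at −1.75 and −1.45 in NT and −1.79 and −1.62 in AS, and its pPAS isoform at −1.02 and −0.72 in NT and 0.05 and −0.42 in AS. The fitted difference was −1.52 ± 0.41 (adjusted p = 0.15 by edgeR) in AS and −0.73 ± 0.55 (adjusted p = 0.52 by edgeR) in NT.

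Ppp1r12a had 1.57 ± 0.72 in NT (adjusted p = 0.25 by edgeR) and 0.44 ± 0.62 in AS (adjusted p = 0.75 by edgeR). Its dPAS isoform was enriched in the 4 RIP libraries by 0.95 to 1.54, and its pPAS isoform by 0.52 and 1.09 in AS but 0.43 and −1.06 in NT. With the PASs most abundant in the RIP libraries, 119 nt apart, the difference was 0.05 in NT (adjusted p = 0.98 by edgeR) and 1.62 in AS (adjusted p = 0.38), so the order of NT and AS depended on the pair. Snx7 had 1.05 ± 0.53 in NT (adjusted p = 0.30 by edgeR) and 1.02 ± 0.43 in AS (adjusted p = 0.29 by edgeR). Its dPAS isoform was enriched by 0.92 to 1.75 and lay above the pPAS isoform in each library pair.

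Tmpo had differences of 0.56 ± 0.45 in NT and 0.49 ± 0.29 in AS, near the medians over all genes tested, 0.53 in NT and 0.48 in AS. Tm9sf3 had −0.22 ± 0.53 and −0.57 ± 0.40, and the adjusted p of these 2 genes were 0.44 to 0.87 by edgeR. Both Tm9sf3 isoforms were enriched in the 4 RIP libraries, by 0.77 to 1.98. None of the 6 passed this test. In NT it called 67 of 1690 genes with the long isoform more bound (3.96%) and 2 with it less bound (0.118%), and in AS none of 1866 (0.0% each way, 327 at an unadjusted p below 0.05, 144 by DESeq2).

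DESeq2 called Thap2 in AS (adjusted p = 0.00092, with 7.5% of genes called in that direction), as did edgeR over the 804 genes with more than 20 reads in each library (adjusted p = 0.047, 5.97%). Over all the alternatives the adjusted p of Thap2 ran from 0.00092 to 0.74, with a difference of 2.66 to 2.75. Fisher's exact test in both replicate pairs, which ignores the spread between replicates, called the long isoform as more bound in Ppp1r12a and Snx7 in NT (20.9% of genes) and in Thap2 in AS (17.5%), and as less bound in Slc25a4 in NT (1.89%) and AS (1.71%).

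At the gene level in AS, Tm9sf3 was enriched with TIA1 by 1.43 ± 0.29 (SE, n = 2 against 2, adjusted p = 0.012 by edgeR with the replicate block) and Ppp1r12a by 1.18 ± 0.30 (adjusted p = 0.028), where 8.97% of genes were called as enriched. Slc25a4 was depleted by −1.36 ± 0.27 (adjusted p = 0.013), where 10.1% were called as depleted. Thap2 (0.41), Snx7 (0.37) and Tmpo (−0.32) did not pass. These calls rest on the block: without it no gene was called, and the adjusted p was 0.13 for Tm9sf3, 0.17 for Ppp1r12a and 0.12 for Slc25a4. DESeq2 with the block left Ppp1r12a at an adjusted p of 0.055.

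**Figure D4:**
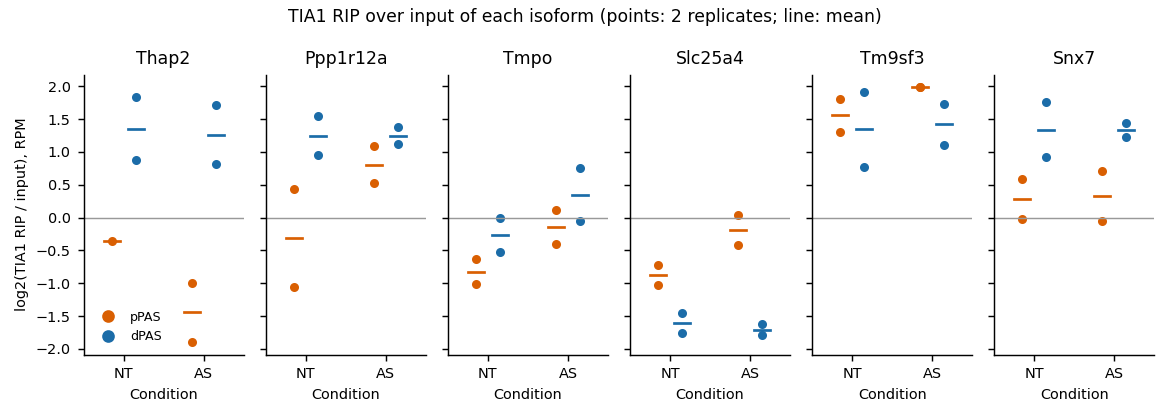
The y axis is log2 of TIA1 RIP over input RPM for the pPAS (orange) and dPAS (blue) isoform of each gene in NT and AS. Points are the 2 replicates, lines their means, and the Thap2 pPAS in NT has 1 point because it was unlisted in RIP replicate 1. In AS the 2 Thap2 dPAS points lie above 0 and the pPAS points below, and in Slc25a4 the dPAS points lie below the pPAS points.

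By edgeR, differentiation of C2C12 moved 3 of the 6 isoform ratios, 2 of them against the direction of arsenite. Those 2 calls, of Thap2 and Ppp1r12a, did not hold by DESeq2, without MB replicate 3 or with another pair of PASs, as given below. In the fit of MT against MB total RNA the log2 ratio of dPAS over pPAS rose for Thap2 by 1.67 ± 0.44 (SE, n = 2 against 2, adjusted p = 0.013 by edgeR) and for Ppp1r12a by 1.24 ± 0.31 (adjusted p = 0.0096), where 10.9% of 2917 genes were called as longer. It fell for Slc25a4 by −1.71 ± 0.20 (adjusted p = 4.3e-06), where 4.59% were called as shorter. Tmpo (−0.26 ± 0.20), Tm9sf3 (−0.36 ± 0.27) and Snx7 (−0.18 ± 0.28) did not pass, with adjusted p of 0.42 to 0.73.

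The Slc25a4 shift was a loss of the long isoform. Its dPAS isoform had 843 and 646 RPM in MB and 164 and 172 in MT, and its pPAS isoform 56.1 and 65.6 in MB and 46.7 and 44.2 in MT. In Thap2 the dPAS isoform rose from 39.5 and 47.8 RPM to 98.5 and 96.2, while the pPAS isoform stayed low, at 2.47 and 6.66 in MB and 4.41 and 2.26 in MT. Ppp1r12a had its dPAS isoform at 87.2 and 79.1 RPM in MB and 94.1 in both MT libraries, and its pPAS isoform at 11.7 and 21.2 in MB and 8.56 and 7.45 in MT.

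The Thap2 and Ppp1r12a calls depended on MB replicate 3, the library with more of the pPAS: without it the changes were 0.90 (adjusted p = 0.40) and 0.66 (adjusted p = 0.22), while Tmpo (−0.58, adjusted p = 0.019) and Tm9sf3 (−0.88, adjusted p = 0.044) passed. DESeq2 gave adjusted p of 0.056 and 0.073 for Thap2 and Ppp1r12a, Thap2 had 1.25 (adjusted p = 0.094) without MT replicate 3, and Fisher's exact test in both pairs called Slc25a4 (3.22% of genes called as shorter) and neither of them (8.33% called as longer). With the PASs most abundant in these libraries the changes were 1.03 for Thap2 (adjusted p = 0.056 by edgeR) and 0.15 for Ppp1r12a (adjusted p = 0.72).

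Gene levels followed differentiation in 5 of the 6 genes, as they did for most genes: 32.3% of 9781 genes were called as higher and 29.3% as lower in MT. Tmpo fell from 810 and 881 RPM in MB to 223 and 209 in MT, a log2 change of −1.81 ± 0.10 (adjusted p = 3.2e-10 by edgeR). Slc25a4 fell from 943 and 763 RPM to 247 and 244, by −1.64 ± 0.11 (adjusted p = 3.8e-09), and Snx7 from 98 and 99.3 RPM to 53.9 and 65.5, by −0.57 ± 0.13 (adjusted p = 0.0014). Thap2 rose from 49 and 58.7 RPM to 108 and 103, by 1.12 ± 0.13 (adjusted p = 2.2e-06). For Ppp1r12a the change was 0.29 ± 0.10 (adjusted p = 0.025 by edgeR, 0.099 by DESeq2, 0.14 and 0.12 without MT replicate 2 and 3), and for Tm9sf3 −0.20 ± 0.10 (adjusted p = 0.099). Without MT replicate 2 the adjusted p of Snx7 was 0.052, and without MB replicate 2 that of Tm9sf3 was 0.040. In bulk RNA, fewer cells of a type and less RNA in each cell cannot be told apart.

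**Figure D5:**
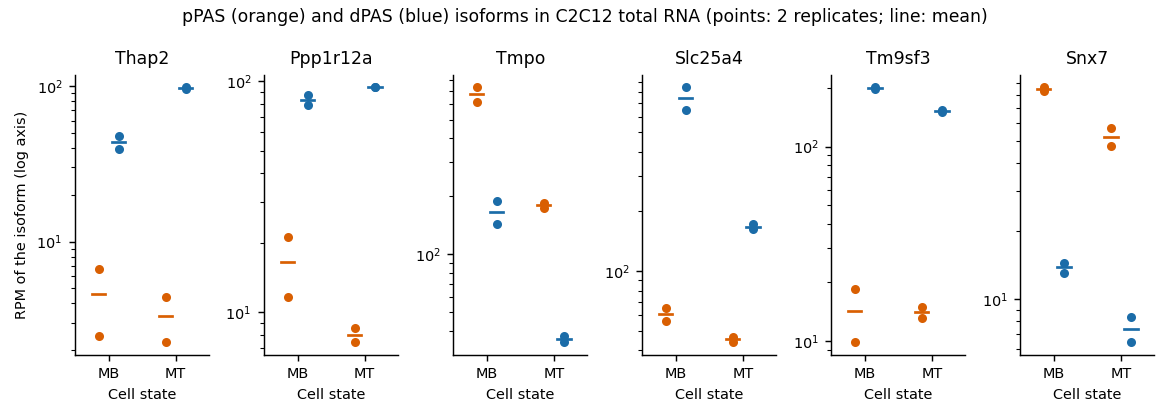
Each panel is 1 gene, with the RPM of the pPAS (orange) and dPAS (blue) isoform in C2C12 MB and MT total RNA on a log axis whose range differs between panels. Points are the 2 replicates and lines their means. The Slc25a4 dPAS isoform falls from above 600 to below 180 RPM while its pPAS isoform stays between 44 and 66.

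Genes related to the 6 were read from fixed lists, beside the 29.3% of all genes called as lower and the 32.3% called as higher in MT. Of the 10 tested genes of the LEM domain and lamina list, around Tmpo, 4 fell, among them Lmnb1, lamin B1 (−3.39 ± 0.15), Lbr, the lamin B receptor (−1.84 ± 0.12), and Lmna, lamin A/C (−1.39 ± 0.11), and 2 rose, Sun1 (0.80 ± 0.17) and Lemd2 (0.63 ± 0.12). The list's median was −0.38, against 0.03 over all genes tested. Of 9 genes around myosin phosphatase, Mylk, myosin light chain kinase (2.94 ± 0.32), Ppp1r12b, another targeting subunit (1.11 ± 0.44), and Ppp1cb, its catalytic subunit (0.91 ± 0.10), rose, and Myl9, a regulatory light chain (−1.97 ± 0.11), and Ppp1r12c (−0.43 ± 0.14) fell, with a list median of 0.03. Adjusted p-values of these genes were 0.040 or lower by edgeR.

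Of 6 carriers and partners of Slc25a4, Vdac3 rose (0.84 ± 0.20), and Ppif, cyclophilin D (−1.20 ± 0.24), and Slc25a3, the phosphate carrier (−0.39 ± 0.09), fell. Of 14 sorting nexins, Snx13 (1.25) and Snx18 (0.85) rose and Snx2, Snx6, Snx27 and Snx30 fell, by −0.42 to −0.54. Of 4 THAP genes, Thap3 rose (1.13) and Thap7 fell (−0.39), and of 3 TM9 genes, Tm9sf2 rose (1.28).

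With TIA1 in AS, 8.97% of all genes were called as enriched and 10.1% as depleted. Of 9 genes around myosin phosphatase, Ppp1cb (1.93 ± 0.27) and Rock2, a kinase that inhibits myosin phosphatase (1.79 ± 0.28), were enriched. Myl12b (−1.65 ± 0.29) of the same list was depleted. Of 10 genes of the LEM domain and lamina list, Lbr (1.02 ± 0.28) was enriched. Vdac2 (−2.05 ± 0.49), Ppif (−1.26 ± 0.30) and Slc25a3 (−1.22 ± 0.24) were depleted, 3 of 6 tested carriers and partners of Slc25a4, with a list median of −1.21 against 0.01 over all genes. Of 14 sorting nexins, Snx6 (−1.14 ± 0.28) was depleted, and none of the 5 THAP genes and 3 TM9 genes tested passed. These genes had adjusted p of 0.034 or lower by edgeR with the block, and no gene was called without it. In the isoform tests, which covered 0 to 5 genes of a list, no gene of the 6 lists was called. For the inputs and for TIA1 in AS these tests called no gene at all, so no list gene could pass there.

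RNA-seq of coding sequences, which cannot tell the isoforms apart, gave the level of each gene in 1 library a condition of 17137451 to 25193953 reads. Ppp1r12a was the 1 member past 0.5 on the log2 scale in AS against NT0h, with 5147 reads in NT0h and 9357 in AS and a median-ratio normalized change of 0.64, where 12.4% of 10830 genes were this high and 7.11% at −0.5 or lower. The others were between −0.35 for Tm9sf3 and 0.21 for Thap2. Between the untreated libraries the largest difference was 0.43, for Thap2, which had 55 and 67 reads.

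At RC4 against NT4h, Thap2 (1.18) and Ppp1r12a (0.69) were past 0.5 upward (29.4% of genes) and Tmpo (−0.54) downward (28.8%). The Thap2 value rests on 67 reads in NT4h and 128 in RC4. In total RNA by 3′READS, scaled by library total, Thap2 had 32.4 RPM at RC4 against 31.5 in NT replicate 4, and Ppp1r12a 56.2 against 68.3. Scaling RNA-seq by library total lowers every gene alike, with the median of all genes at −0.81 in place of near 0. The RNA-seq changes were then 0.38 for Thap2, −0.12 for Ppp1r12a, −1.35 for Tmpo, −1.22 for Snx7, −1.16 for Slc25a4 and −0.80 for Tm9sf3.

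Over the 28 groups of 3′READS libraries, the 6 genes had their highest and lowest levels in different experiments. Ppp1r12a and Thap2 were highest in the 4 newly made RNA libraries, at 452 to 682 and 97.9 to 191 RPM, against 136 to 194 and 41.6 to 50.4 in pre-existing RNA, except that TIA1 RIP (113 to 170) and MT total RNA (103 to 108) overlapped with 4sU for Thap2. Ppp1r12a was lowest in the inputs, 54.3 ± 2.82 (SD, n = 2) RPM in NT and 46.7 ± 3.28 in AS, and Thap2 in MT cytoplasm (22.0 RPM in NT4h). Tm9sf3 was highest in TIA1 RIP, 522 ± 189 in AS and 484 ± 172 in NT, which do not differ beyond their spread, and lowest in total RNA at RC8 (101).

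Slc25a4 was highest in MB total RNA, 853 ± 127 (SD, n = 2), and lowest in TIA1 RIP, 122 ± 10.2 in NT and 129 ± 8.77 in AS. Snx7 was highest in TIA1 RIP, 300.0 ± 96.8 in AS and 275 ± 90.7 in NT, with inputs of 195 ± 26.4 in AS and 195 ± 19.3 in NT, and lowest in total RNA at RC12 (11.3). Tmpo was highest in the inputs, 1230 ± 218 in AS and 978 ± 99.8 in NT, with TIA1 RIP in AS between them (1140 ± 83.4), and lowest in total RNA at RC4 (120). The experiments were made apart, so levels compare libraries of different preparations. The replicates of total RNA themselves ranged widely, from 208 to 828 RPM for Slc25a4 and 16.7 to 112 for Snx7 in NT.

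Tmpo also used a PAS upstream of its last exon, at position 90623162 of chromosome 10, an annotated end of a protein-coding transcript, with 3733 reads over the 38 libraries. It took 24.4% and 23.5% of the gene's reads in newly made untreated RNA, 15.8% and 19.4% in pre-existing untreated RNA, 3.19 to 9.06% in the 3 total NT libraries and 1.37% and 2.83% in the NT inputs. In AS its share was lower than in the untreated library of the same pair in each of the total RNA pairs (2.60% against 3.31%, 2.44% against 3.19% and 3.85% against 9.06%). In 4sU it was 18.7% against 24.4% and in Ft 13.3% against 15.8%.

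The genes whose levels followed the members most closely, by Pearson's r of log2(RPM + 1) over the 28 group means among 7551 genes, were Suz12 (0.95) and Trim33 (0.94) for Ppp1r12a, Stx2 (0.94) and Sec23b (0.94) for Snx7, and Mrpl49 (0.92) and Prkcdbp (0.91) for Slc25a4. For Tmpo they were Ckap2l and Vrk1 (both 0.90), for Tm9sf3 Tmed2 and Mapre1 (both 0.89) and for Thap2 Nrg1 (0.87) and Pcf11 (0.86). Groups of 1 experiment share a preparation and a depth, so these values describe the libraries and no p is given.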

How the data were processed

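For 3′READS the authors used cutadapt and Bowtie2, with mm9 as the genome, and deposited raw read counts for each PAS. RNA-seq reads were mapped with STAR, and the authors deposited raw counts per gene over coding sequence. Counts under 5 are not listed and were taken as 0.

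PAS positions within 24 nt were joined into clusters over the 38 libraries. Clusters in the 3′-most last exon of a protein-coding gene of GENCODE M1 (NCBIM37, which is mm9) were given to that gene. So were clusters up to 4000 nt past that exon and before the next gene start on the strand. Clusters elsewhere in a gene were not counted in its 3′UTR sums, and 121 ambiguous clusters were left out. The pPAS and dPAS were the 2 3′UTR PASs with the highest mean RPM in total NIH3T3 RNA, at most 10000 nt apart. Genes had more than 5 reads of each isoform in every library compared. The 6 genes, the lists of relatives and the tests were chosen with earlier results of these data known. Relatives are named where they passed a replicated test, and the 2 genes outside the rule and the 2 closest in level by rank.

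Replicated contrasts were tested with edgeR 4.0.16 (glmQLFit, glmQLFTest) in R 4.3.3: for isoforms the isoform by treatment term with library as a term, for genes TMM-scaled sums of 3′UTR PAS reads. Calls had a Benjamini-Hochberg adjusted p under 0.05 over all genes tested. RIP and input of 1 number came from 1 lysate, so their fits had the replicate number as a block (correlation of same-numbered deviations of log2 dPAS over pPAS 0.38 in NT and 0.35 in AS). The fits were also run on simulated counts in which same-numbered libraries shared no deviation, so those runs cannot tell whether a block is needed. DESeq2 1.42.0 and Fisher's exact test (scipy 1.17.1) were alternatives. Contrasts with 1 library an arm had no test, and past means a RED or log2 ratio of 0.5. Shares have 95% Wilson intervals, which cover counting error only, since PCR copies are not independent molecules.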

Additional observations from a re-analysis of the deposited data

Results flagged for a closer look

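In 4 cases the same contrast gave opposite directions in C2C12 MB and MT against both untreated libraries of each, and the difference between MB and MT was not tested, with 1 library a condition. Snx7 in AS had a RED of 0.44 in MB and −0.98 in MT. At RC4 Snx7 had 2.28 in MB and −0.38 in MT, Slc25a4 −2.63 in MB and 0.20 in MT, and Tm9sf3 −2.57 in MB and 0.32 in MT. The 3 MB values at RC4 are against MB NT4h, the library that stood apart from MB NT0h. Against MB NT0h they were 0.43, −0.49 and −0.17, of the same sign but smaller.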

How the results depend on the processing

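Counts of called genes moved with the test, the block, the minimum of reads and the library left out. For TIA1 against input in NT, 69 genes were called, and 0 without the replicate block, 30 with more than 20 reads a library, 0 with more than 5 reads over the libraries together, 36 with PASs chosen within the experiment, 141 by DESeq2, 385 by Fisher's exact test in both pairs, and 0 without any 1 library (no block). In AS the 0 became 48 with more than 20 reads, 144 by DESeq2, 359 by Fisher's test and 1 to 63 without 1 library (no block; 8 without input replicate 1, 1 without input replicate 2, 27 without TIA1 replicate 1 and 63 without TIA1 replicate 2). For the gene level of TIA1 in AS, 1668 were called, 0 without the replicate block and 0 to 12 without 1 library with the block dropped as well. For MT against MB isoforms, 452 became 0 with reads over the libraries together, 133 by DESeq2 and 246 to 420 without 1 library, the lowest without MT replicate 3 and 248 without MT replicate 2. For the inputs in AS against NT, 0 isoform calls became 46 by Fisher's test, and 0 gene calls became 86 with the replicate block, 1 with no filter on low counts, 25 by DESeq2 and 0 to 1 without 1 library. The block moved MT against MB from 452 to 473. By their labels, inputs of NT and AS, like MB and MT, share only a number. Same-numbered deviations correlated at 0.60 in the inputs, above the 0.38 and 0.35 of RIP and input, and at 0.08 in MB and MT. The block changed the call of no member in the inputs or in MB and MT.

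The 6 genes that met the rule became 3 with more than 20 reads, and 21 to 90 without 1 pair: 32 without replicate 1, 21 without replicate 2 and 90 without replicate 4. With more than 20 reads, members in the chosen direction, by the sign of RED alone, went from 5 to 3 at RC4, RC8 and RC24, from 6 to 3 at RC12, from 5 to 3 in MB AS, from 6 to 2 in MB RC4 and from 3 to 1 in MT AS and MT RC4, since fewer were measured. With the untreated library of the other time they went from 5 to 3 in 4sU AS. Of all genes with more than 5 reads, 66.0%, 58.8%, 59.2% and 47.2% had a RED below 0 at RC4, RC8, RC12 and RC24. The share was 57.1% in MB AS, 67.8% in MB RC4, 57.5% in MT AS, 69.7% in MT RC4 and 66.8% in 4sU AS.

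Of 583 alternative values of single genes, 45 had another sign than the value reported. In 38 of them that value was not called or, with no test, was under 0.5 in size, and 7 were past it. PASs chosen within the experiment gave Ppp1r12a 0.62 in MB AS, 1.60 in MB RC4 and 0.12 in MT RC4, and Thap2 0.75 in MT AS. The untreated library of the other time gave Slc25a4 0.14 in Ft AS and Tmpo 0.28 in MT RC4, and scaling by library total, which lowers all genes alike, gave Ppp1r12a −0.12 in RNA-seq at RC4. Besides these 7, 460 values kept their side of the threshold or moved by less than the error (15 with another sign), 81 moved by more (23 with another sign), 30 lost their call and 5 gained one. The causes were not tested. Leaving out both libraries of 1 number was not run for isoforms, as no residual degrees of freedom remained, and leaving out 1 library for the isoform and TIA1 results was chosen after seeing the data. Members at 6 to 30 reads of an isoform limit Thap2, Ppp1r12a and Snx7 in replicate 4.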
